A study of Mus musculus with 9 samples.

Results

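The 8 genes described here encode the cytokines and receptors of the BAFF system and the surface proteins through which B cells and other antigen-presenting cells exchange costimulatory signals with T cells. They were taken by name as the members of this system, by a rule that uses no measured value but was written with earlier results of these data known, and all 8 were among the 21965 genes counted. The ligands are Tnfsf13b (BAFF) and Tnfsf13 (APRIL), the receptors are Tnfrsf13c (BAFF receptor), Tnfrsf13b (TACI) and Cd40, and the ligands for T cell receptors are Icosl, Cd80 and Cd86. RNA was sequenced from spleen cells of mice aged 16 weeks in 3 groups of 3 libraries: BWF1 females (NZB x NZW F1), which are prone to lupus, BWF1 males, which the series title does not count as prone, and the BALB/c females, also not prone. No treatment, transgene or deletion is named for any group. The labels disagree on the material: the title and design name splenocytes, and the sample labels name macrophages sorted on CD11b and F4/80.

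BAFF is a survival factor for mature B cells. It acts through the BAFF receptor, which feeds the alternative NF-kB pathway, and it shares TACI with APRIL. CD40 receives the signal of CD40 ligand from T cells, whereas ICOSL engages ICOS, and CD80 and CD86 engage CD28 and CTLA4 on T cells. An excess of BAFF drives autoantibody formation in mice, and the pathway is a drug target in human lupus.

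RefSeq promoter sequence (GRCm38.p6) was found for 6 of the 8 genes, and 3 are shown: that of Icosl, whose RNA level differed between the strains, and those of both BAFF receptors, for which no difference was called. All are reference sequence and were not read from the mice studied here. Each stretch ends at the base before the more upstream of the gene's RefSeq and GENCODE starts, so that it lies outside both transcripts, and is written 5′ to 3′ on the strand of the gene. Icosl lies at chr10:78069118-78069301 on the plus strand, Tnfrsf13b at chr11:61126505-61126754 on the plus strand and Tnfrsf13c at chr15:82224381-82224630 on the minus strand. Capitals mark matches to GGGNNNNNCC, a loose NF-kB pattern, on either strand.
Icosl: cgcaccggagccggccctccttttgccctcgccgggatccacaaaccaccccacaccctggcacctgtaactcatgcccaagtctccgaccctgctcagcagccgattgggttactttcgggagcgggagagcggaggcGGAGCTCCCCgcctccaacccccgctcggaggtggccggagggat
Tnfrsf13b: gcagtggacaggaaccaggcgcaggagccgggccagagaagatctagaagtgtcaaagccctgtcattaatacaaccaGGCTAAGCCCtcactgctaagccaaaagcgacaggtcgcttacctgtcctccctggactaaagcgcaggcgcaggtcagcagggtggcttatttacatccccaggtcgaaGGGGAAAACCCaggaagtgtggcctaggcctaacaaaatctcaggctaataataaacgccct
Tnfrsf13c: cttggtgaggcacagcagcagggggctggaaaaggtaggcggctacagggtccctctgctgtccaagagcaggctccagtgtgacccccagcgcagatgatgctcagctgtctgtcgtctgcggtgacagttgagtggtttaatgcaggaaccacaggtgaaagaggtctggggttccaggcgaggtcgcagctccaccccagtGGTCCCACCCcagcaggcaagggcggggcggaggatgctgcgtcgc
Icosl held 1 match in 184 bases, where 34.1% of 32851 promoter windows of that length held at least 1. Tnfrsf13b held 3 matches in 250 bases, of which 2 overlap, and Tnfrsf13c held 1, where 45.8% of windows held at least 1. The pattern was thus common, and it was present upstream of genes that did and did not pass the test. No match was found in the 3 stretches for the octamer ATGCAAAT, the AP-1 pattern TGANTCA or the PU.1 core GAGGAA.

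Libraries were shallow, with 458608 to 4305003 gene counts, of which Lars2 alone took 42.3% to 76.6%. Of the 8 genes, 5 passed the filter on low counts and were tested. Tnfsf13b, Tnfsf13 and Cd80 did not pass and are given as raw counts. Genes of B cells were well detected: Cd79a, part of the B cell receptor, stood at 295 ± 38.7, 402 ± 74.2 and 444 ± 37.2 CPM (counts relative to the TMM-scaled library total; SD, n = 3) in BWF1 females, BWF1 males and the BALB/c females. The F4/80 gene Adgre1 averaged 14.8 ± 2.68, 15.3 ± 4.96 and 7.27 ± 1.78 CPM in the same order. Itgam, which encodes CD11b, had 1, 37 and 22 counts summed over the libraries of BWF1 females, BWF1 males and the BALB/c females and was below the filter. The markers of a sorted macrophage population were therefore low beside those of B cells, and the libraries are called spleen cells here. In such a mixture, fewer cells of a type and less RNA per cell cannot be told apart.

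Summed marker levels differed between the groups and bear on what follows. The 20 B cell markers, all tested and none at 0 in any group, summed to 3573 to 3982 CPM in BWF1 females, 3795 to 4585 in BWF1 males, against 4591 to 4730 in the BALB/c females. In BWF1 females against BALB/c females, 1 of them was called higher and 3 lower. In BWF1 males against BALB/c females 1 was called higher and 0 lower, and none higher and 1 lower in BWF1 females against BWF1 males. The exact two-sided permutation p of the sum was 0.1 in both comparisons with BALB/c females, the smallest that 3 against 3 libraries allow. Between BWF1 females and BWF1 males this permutation p was 0.3. The 19 macrophage and monocyte markers, 16 of them tested, summed to 337 ± 15.1, 787 ± 135 and 508 ± 27.4 CPM (SD, n = 3) in BWF1 females, BWF1 males and the BALB/c females, with no marker at 0 in any group. Immediate early and heat shock genes, 28 tested, summed to 2341 ± 152, 2856 ± 391 and 4760 ± 1034 CPM in that order, without overlap, with 15 called lower in BWF1 females and 9 in BWF1 males against BALB/c females. Of all 7719 genes tested, 1.79% were called higher and 2.03% lower in BWF1 females against BALB/c females. These shares were 1.67% and 1.85% in BWF1 males against BALB/c females, and 0.959% and 1.23% in BWF1 females against BWF1 males.

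The BAFF and APRIL transcripts were at the edge of detection in every group. Tnfsf13b (ENSMUSG00000031497, chromosome 8, 10006467 to 10039072, plus strand, mm10) had 0, 0 and 1 counts in BWF1 females 1 to 3, 0, 1 and 3 counts in BWF1 males and 1 count in each BALB/c female. No library exceeded 3 counts, and the groups overlapped. Pooled over a group's libraries, the level of Tnfsf13b was 0.641 CPM (exact 95% Poisson interval 0.0162 to 3.57) in BWF1 females, 0.636 CPM (0.173 to 1.63) in BWF1 males and 0.765 CPM (0.158 to 2.24) in the BALB/c females. These intervals cover counting error only, and a difference in BAFF RNA was not detectable at this depth.

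Tnfsf13 (ENSMUSG00000089669, chromosome 11, 69682846 to 69685784, minus strand) had 0 counts in each BWF1 female, 1, 1 and 0 counts in BWF1 males and 1, 2 and 0 counts in the BALB/c females. The 0 counts of the BWF1 females allow a level of up to 1.92 CPM by the limit of 3 counts over the group, and up to 2.36 CPM by the exact 95% Poisson interval given for the other low genes. Both lie above the pooled levels of Tnfsf13, 0.318 CPM (0.0385 to 1.15) in BWF1 males and 0.765 CPM (0.158 to 2.24) in the BALB/c females. The Tnfsf13 counts are also uncertain because 60.0% of its exon bases lie in Tnfsfm13, a joined Tnfsf12 and Tnfsf13 transcript on the same strand, and 13.5% in the antisense gene Tnfsf13os. Tnfsfm13 itself had 0, 1 and 0 counts in BWF1 females, 0, 1 and 2 in BWF1 males and 0 in each BALB/c female.

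**Figure D1:**
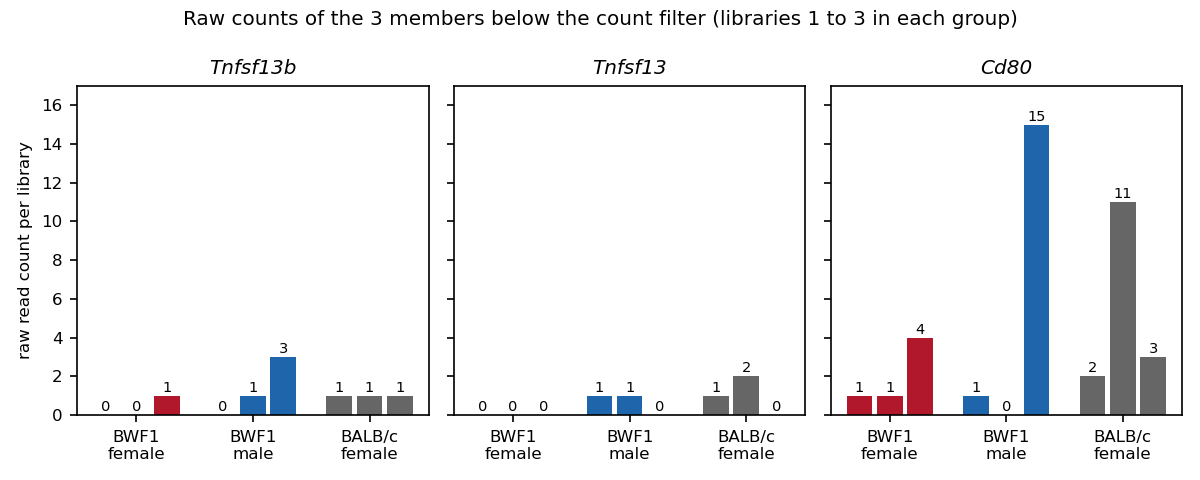
Raw read counts (vertical axis) of Tnfsf13b, Tnfsf13 and Cd80 in libraries 1 to 3 of BWF1 females (red), BWF1 males (blue) and the BALB/c females (grey), 1 bar per library. Both cytokine genes stay at or below 3 counts, and Cd80 exceeds 4 counts in 2 libraries.

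The receptors of BAFF were well detected, at like levels in the 3 groups. Tnfrsf13c (ENSMUSG00000068105, chromosome 15, 82221743 to 82224369, minus strand), the BAFF receptor of mature B cells, stood at 61.8, 67.8 and 94.4 CPM in BWF1 females, 70.6, 86.1 and 94.3 CPM in BWF1 males and 73.3, 65.7 and 88.2 CPM in the BALB/c females. The ranges overlapped, and library 3 was the highest in each group. The fitted log2 fold change of Tnfrsf13c was -0.18 for BWF1 females over BWF1 males (95% interval -0.58 to 0.23; edgeR adjusted p = 0.713). For BWF1 females over BALB/c females it was -0.02 (-0.42 to 0.38; edgeR adjusted p = 0.975), and for BWF1 males over BALB/c females 0.16 (-0.23 to 0.55; edgeR adjusted p = 0.756).

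Tnfrsf13b (ENSMUSG00000010142, chromosome 11, 61126755 to 61149372, plus strand) encodes TACI, which binds both BAFF and APRIL and restrains B cell numbers. Its level was 110, 102 and 105 CPM in BWF1 females, 104, 107 and 101 CPM in BWF1 males and 93.4, 88.7 and 112 CPM in the BALB/c females. All 6 BWF1 libraries lay inside the BALB/c range. The log2 fold change of Tnfrsf13b was 0.02 (95% interval -0.32 to 0.36; edgeR adjusted p = 0.967) for BWF1 females over BWF1 males. It was 0.11 (-0.23 to 0.44; adjusted p = 0.797 by edgeR) for BWF1 females over BALB/c females and 0.08 (-0.25 to 0.42; adjusted p = 0.860 by edgeR) for BWF1 males over BALB/c females. For both receptors these intervals leave room for log2 differences between -0.58 and 0.55.

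Cd40 (ENSMUSG00000017652, chromosome 2, 165055627 to 165072948, plus strand), the receptor through which helper T cells activate B cells, was lower in both BWF1 groups than in the BALB/c females. Its level was 30.9, 37.1 and 32.9 CPM in BWF1 females, 33.3, 39.0 and 36.2 CPM in BWF1 males and 53.9, 61.1 and 68.4 CPM in the BALB/c females. Every BWF1 library lay below every BALB/c library, and the BWF1 sexes overlapped. The group means of Cd40 were 33.6 ± 3.18, 36.2 ± 2.81 and 61.1 ± 7.25 CPM (SD, n = 3) in BWF1 females, BWF1 males and the BALB/c females.

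The log2 fold change of Cd40 was -0.85 ± 0.21 (SE) for BWF1 females over BALB/c females, 1.81-fold lower in BWF1 females (95% interval -1.29 to -0.42; edgeR adjusted p = 0.0177). For BWF1 males over BALB/c females it was -0.75 ± 0.20 (SE), 1.68-fold lower in BWF1 males (-1.16 to -0.34; adjusted p = 0.0332 by edgeR). Between BWF1 females and males it was -0.11 (-0.55 to 0.34; adjusted p = 0.862 by edgeR). The Cd40 call depended on the scaling and on single libraries, whereas its direction did not. It was lost against BALB/c females in BWF1 females (log2 fold change -0.57, edgeR adjusted p = 0.0910) and in BWF1 males (-0.62, 0.0900) with libraries scaled by their B cell marker counts. DESeq2 did not call it in BWF1 females (-0.84, adjusted p = 0.129) or BWF1 males (-0.74, adjusted p = 0.0894), and with library size only it was not called in BWF1 females (-1.15, edgeR adjusted p = 0.133). Leaving out BWF1 female 1 (adjusted p = 0.0699 by edgeR), BALB/c female 2 (0.0643) or BALB/c female 3 (0.0974) ended the call in BWF1 females. Leaving out BWF1 male 2 (0.0668), BWF1 male 3 (0.143), BALB/c female 2 (0.122) or BALB/c female 3 (0.152) ended it in BWF1 males.

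Icosl (ENSMUSG00000000732, chromosome 10, 78069302 to 78083913, plus strand), the ligand of ICOS on T follicular helper cells, showed the largest difference among the 5 tested genes. Its level was 61.8, 64.5 and 57.5 CPM in BWF1 females, 49.0, 61.5 and 71.8 CPM in BWF1 males and 137, 144 and 132 CPM in the BALB/c females. The highest of the 6 BWF1 libraries stood at 71.8 CPM and the lowest BALB/c library at 132 CPM, with no overlap. The group means were 61.3 ± 3.55, 60.8 ± 11.4 and 137 ± 6.09 CPM (SD, n = 3) in BWF1 females, BWF1 males and the BALB/c females.

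The log2 fold change of Icosl was -1.16 ± 0.18 (SE) for BWF1 females over BALB/c females, 2.24-fold lower in BWF1 females (95% interval -1.53 to -0.80; edgeR adjusted p = 0.000205). For BWF1 males over BALB/c females it was -1.16 ± 0.17 (SE), 2.23-fold lower in BWF1 males (-1.51 to -0.80; adjusted p = 0.000117 by edgeR). BWF1 females and males were close, at -0.01 (-0.38 to 0.36; adjusted p = 0.992 by edgeR). Both comparisons rest on the same BALB/c libraries, and the male one differs in sex as well as strain, which cannot be told apart in it. Icosl had the 29th lowest p of the 7719 genes tested in BWF1 females against BALB/c females and the 34th lowest in BWF1 males against BALB/c females.

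Cd86 (ENSMUSG00000022901, chromosome 16, 36603869 to 36666081, minus strand), a ligand of CD28 that activated B cells and dendritic cells carry, was the most variable of the 5. It stood at 17.6, 21.0 and 10.3 CPM in BWF1 females, 37.3, 18.5 and 20.4 CPM in BWF1 males and 30.2, 20.4 and 18.8 CPM in the BALB/c females. These levels rest on 5 to 98 counts per library, and all 3 groups overlapped. The log2 fold change of Cd86 was -0.55 (95% interval -1.25 to 0.16; edgeR adjusted p = 0.462) for BWF1 females over BWF1 males. It was -0.49 (-1.19 to 0.20; adjusted p = 0.492 by edgeR) for BWF1 females over BALB/c females and 0.05 (-0.57 to 0.68; adjusted p = 0.961 by edgeR) for BWF1 males over BALB/c females. Without BWF1 male 1, the highest library, the last value turned to -0.25.

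Cd80 (ENSMUSG00000075122, chromosome 16, 38455561 to 38496335, plus strand), the other ligand of CD28 and CTLA4, lies 1789 kb from Cd86. It had 1, 1 and 4 counts in BWF1 females, 1, 0 and 15 counts in BWF1 males and 2, 11 and 3 counts in the BALB/c females. The library with 15 counts was the deepest one, and the groups overlapped. Pooled levels of Cd80 were 3.85 CPM (exact 95% Poisson interval 1.41 to 8.37) in BWF1 females, 2.54 CPM (1.45 to 4.13) in BWF1 males and 4.08 CPM (2.33 to 6.63) in the BALB/c females. The intervals overlap but cover counting error only, so they are no test of a difference. With no filter edgeR tested all 8 members, and Cd80 was called in no comparison.

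**Figure D2:**
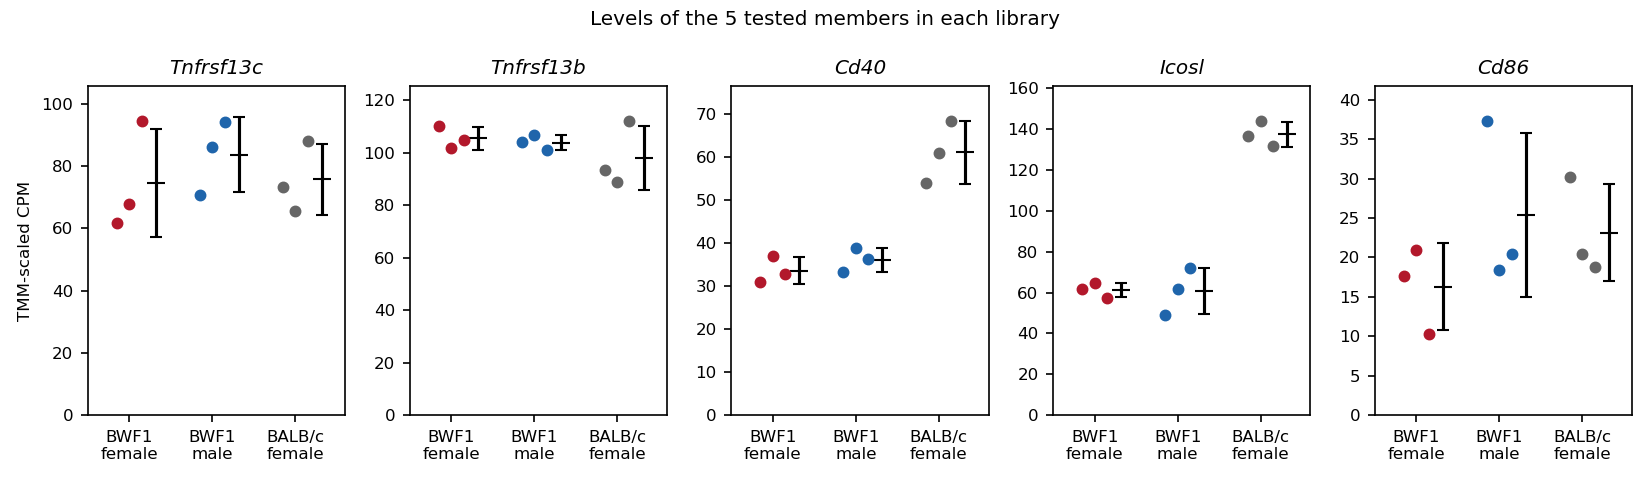
Level in TMM-scaled CPM (vertical axes from 0) of the 5 tested genes in each library of BWF1 females (red), BWF1 males (blue) and the BALB/c females (grey); points are libraries 1 to 3 from left to right, and bars give mean and SD. For Icosl and Cd40 all BWF1 points lie below all BALB/c points, and for the other 3 genes the groups overlap.

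In BWF1 females against BALB/c females, 2 of the 5 tested genes were called, both lower, where 3.82% of the 7719 genes tested were called in either direction, 1.79% higher and 2.03% lower. The same 2 did not overlap between the groups, where 21.2% of all tested genes did not. In BWF1 males against BALB/c females 2 of 5 were called, both lower, against 3.52% of all tested genes (1.67% higher and 1.85% lower), and the same 2 did not overlap, against 23.5%. Between BWF1 females and BWF1 males 0 of 5 were called by edgeR, against 2.19% of all tested genes (0.959% higher and 1.23% lower). In the same fit 0 of 5 had an unadjusted p under 0.05, against 1266 of the 7719 genes tested. DESeq2 also called 0 in that comparison and gave no adjusted p for Cd40 and Cd86. All 5 overlapped between the BWF1 sexes, whereas 18.7% of all tested genes did not. The median log2 fold change of the 5 was -0.11, -0.49 and 0.05 for BWF1 females over BWF1 males, BWF1 females over BALB/c females and BWF1 males over BALB/c females, where that of all tested genes was within 0.01 of 0.

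**Figure D3:**
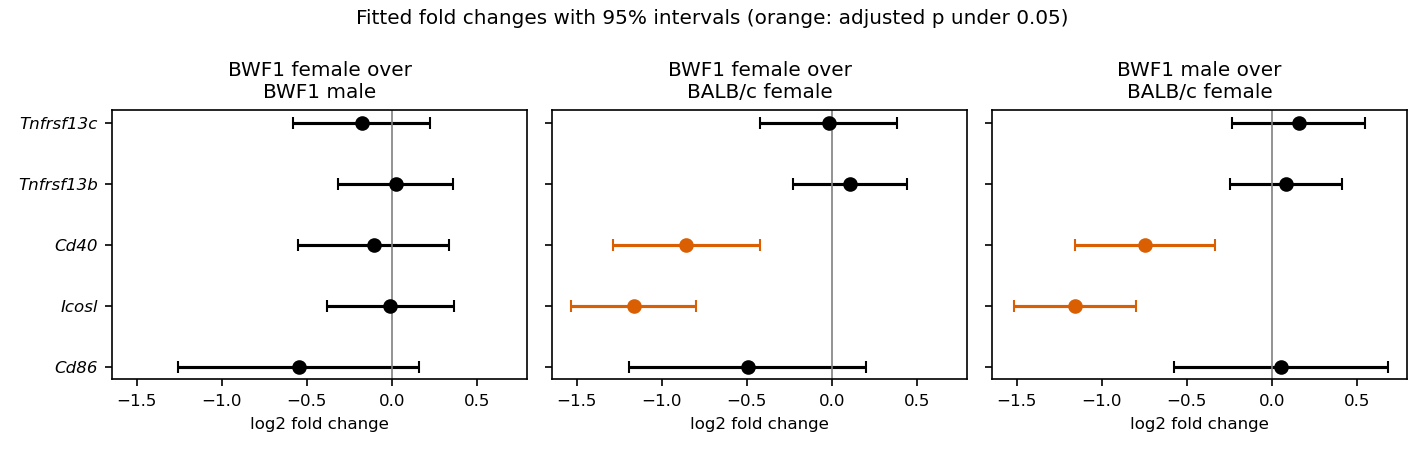
Fitted log2 fold change (horizontal axis) of the 5 tested genes with its 95% interval in BWF1 females over BWF1 males, BWF1 females over BALB/c females and BWF1 males over BALB/c females. Orange marks an adjusted p under 0.05, reached by Icosl and Cd40 in both comparisons with BALB/c females.

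Compared per length of the gene's exons, the BAFF receptors stood highest, and Tnfsf13b, Tnfsf13 and Cd80 lowest. In BWF1 females the level per kilobase was 37.2 ± 1.54 CPM for Tnfrsf13b and 36.5 ± 8.50 for Tnfrsf13c (SD, n = 3), 2 neighbours whose libraries overlapped. Icosl followed at 13.3 ± 0.768, Cd40 at 9.87 ± 0.935, Cd86 at 4.45 (libraries 2.80 to 5.73) and Cd80 at 1.08 ± 0.986 CPM per kilobase. In BWF1 males the order was Tnfrsf13c at 40.9 ± 5.88, Tnfrsf13b at 36.6 ± 0.996, Icosl at 13.2 ± 2.47, Cd40 at 10.6 ± 0.825, Cd86 at 6.93 ± 2.83 and Cd80 at 0.458 ± 0.426 CPM per kilobase. Icosl and Cd40 overlapped in BWF1 males and did not in BWF1 females.

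In BALB/c females Icosl reached 29.7 ± 1.32 CPM per kilobase, close to Tnfrsf13b at 34.6 ± 4.34 and Tnfrsf13c at 37.0 ± 5.59. Its highest BALB/c library stood at 31.2 and the lowest Tnfrsf13b library there at 31.3 CPM per kilobase. Cd40 stood at 18.0 ± 2.13, Cd86 at 6.32 ± 1.68 and Cd80 at 1.05 ± 0.810 CPM per kilobase in the BALB/c females. Tnfsf13b and Tnfsf13 averaged under 1 CPM per kilobase in all 3 groups. Tnfsf13 reached 0.608 ± 0.599 CPM per kilobase in BWF1 males, on 2 counts in all, and overlapped with Cd80 there.

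Ratios within a library do not depend on how libraries are scaled. The counts of Tnfrsf13b over those of Icosl were 1.79, 1.58 and 1.82 in BWF1 females, 2.12, 1.73 and 1.41 in BWF1 males, against 0.684, 0.616 and 0.850 in the BALB/c females. TACI reads thus outnumbered ICOSL reads in all 6 BWF1 libraries and were fewer in all 3 BALB/c libraries. The exact two-sided permutation p was 0.1 in both comparisons with BALB/c females, the smallest possible, and 0.333 after adjustment over 30 such ratio tests (3 against 3 libraries each). The counts of Tnfrsf13b over those of Cd40 averaged 3.17 ± 0.417 in BWF1 females, 2.88 ± 0.207 in BWF1 males, against 1.61 ± 0.143 in the BALB/c females, again without overlap between either BWF1 group and BALB/c. The counts of Cd40 over those of Icosl averaged 0.549 ± 0.0423, 0.606 ± 0.0910 and 0.446 ± 0.0647 in BWF1 females, BWF1 males and the BALB/c females and overlapped.

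The members were also set against the B cell marker counts of the same library, since B cell marker sums were lower in both BWF1 groups than in the BALB/c females. Per 1000 counts of the 20 B cell markers, Icosl had 15.6, 16.2 and 16.1 counts in BWF1 females, 12.9, 13.4 and 16.6 in BWF1 males, against 29.7, 30.4 and 28.3 in the BALB/c females. The separation of Icosl stood on this scale, with group means 0.541 times (BWF1 females) and 0.485 times (BWF1 males) that of BALB/c females. Cd40 had 7.79, 9.32 and 9.20 counts in BWF1 females, 8.79, 8.50 and 8.38 in BWF1 males, against 11.7, 12.9 and 14.7 in the BALB/c females per 1000 marker counts, also without overlap between either BWF1 group and BALB/c. For both genes the exact two-sided permutation p was 0.1 (3 against 3 libraries), and 0.3 after adjustment over 15 tests.

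Tnfrsf13b per 1000 B cell marker counts averaged 27.5 ± 1.91 in BWF1 females, 24.7 ± 2.36 in BWF1 males, against 21.1 ± 2.71 in the BALB/c females. BWF1 females lay above BALB/c females without overlap (exact permutation p = 0.1, adjusted 0.3, 3 against 3 libraries), and the other 2 pairs of groups overlapped. Tnfrsf13c averaged 19.7 ± 5.90, 19.7 ± 1.80 and 16.3 ± 2.54, and Cd86 4.20 ± 1.22, 6.19 ± 3.16 and 4.98 ± 1.39 per 1000 marker counts in BWF1 females, BWF1 males and the BALB/c females. Both genes overlapped in all 3 comparisons. The choice of markers changed the comparison of the BWF1 sexes. Per 1000 counts of Cd79a and Cd79b alone, BWF1 females lay above BWF1 males without overlap for Tnfrsf13b (178 ± 15.2 and 126 ± 12.7), Icosl (103 ± 5.31 and 73.6 ± 13.1) and Cd40 (56.6 ± 7.10 and 43.8 ± 1.68), each with an exact permutation p of 0.1 (3 against 3 libraries) and 0.1875 after adjustment over 15 tests. The ratios of these means were 1.41, 1.40 and 1.29, higher than with the 20 markers, where all 3 genes overlapped between the BWF1 sexes. Icosl and Cd40 of both BWF1 groups lay below BALB/c females without overlap on either scale.

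**Figure D4:**
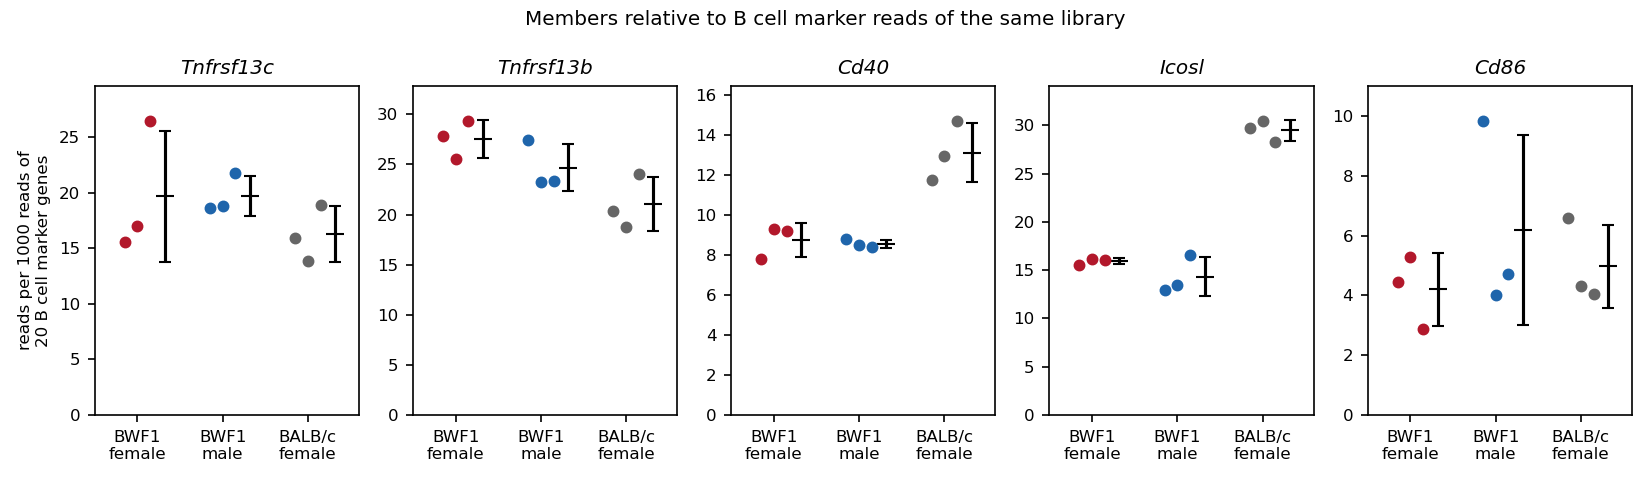
Counts per 1000 counts of 20 B cell marker genes in the same library (vertical axes from 0) for the 5 tested genes in BWF1 females (red), BWF1 males (blue) and the BALB/c females (grey); points are libraries 1 to 3, and bars give mean and SD. Icosl and Cd40 of both BWF1 groups lie below BALB/c females, and Tnfrsf13b of BWF1 females lies above them.

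Other measures moved with the strain difference in Icosl and Cd40. Lower immediate early and heat shock sums went with it, as given above, and so did stromal and endothelial markers (11 in the list, 7 tested), which summed to 408 to 492 CPM in BWF1 females, 455 to 565 in BWF1 males, against 591 to 766 in the BALB/c females, with Madcam1 at 0 in BWF1 females. Cr2 is on both the stromal and the B cell marker list, so the sums of these lists share its counts. Erythroid markers (12 listed, 10 tested) summed to 855 to 2480 CPM in BWF1 females, 229 to 1385 in BWF1 males, against 1518 to 4444 in the BALB/c females, with Hba-a2 at 0 in both BWF1 groups. Of the 10, 0 were called higher and 8 lower in BWF1 males against BALB/c females (median log2 fold change -2.56), and 0 higher and 1 lower in BWF1 females against BALB/c females (-0.80). The part of these lists in the result was not tested. Dendritic cell markers (14 listed, 9 tested) summed to 361 to 446 CPM in BWF1 females, 406 to 475 in BWF1 males, against 435 to 496 in the BALB/c females, and neutrophil markers (11 listed, 8 tested) to 200 to 441, 315 to 759 and 340 to 441 CPM in that order. Both sums overlapped between all groups. The share of alignments in counted genes also split by strain. It was 1.29% to 1.59% in BWF1 females, 1.41% to 2.05% in BWF1 males and 2.14% to 2.82% in the BALB/c females. Its part in the result was not tested. File names carried 1 of 2 tags, ORIG or RL, whose meaning the labels do not give, and all 3 BALB/c libraries carried ORIG. Within ORIG, Icosl stood at 64.5 CPM in BWF1 female 2 and 61.5 CPM in BWF1 male 2, against 132 to 144 CPM in the BALB/c females. With the tag as a term in the edgeR fit Icosl was still called, at -1.13 (adjusted p = 0.00473) in BWF1 females and -1.12 (adjusted p = 0.00410) in BWF1 males over BALB/c females. That term rests on the BWF1 libraries alone, since no BALB/c library carried RL. Tag and strain thus cannot be fully told apart. Cd40 within ORIG stood at 37.1 CPM in BWF1 female 2 and 39.0 CPM in BWF1 male 2, against 53.9 to 68.4 CPM in the BALB/c females, and with the tag as a term it was not called (-0.74, adjusted p = 0.175, and -0.63, adjusted p = 0.297, by edgeR).

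Among genes listed for BAFF and CD40 signalling, the NF-kB feedback gene Tnfaip3 was lower in both BWF1 groups than in BALB/c spleen cells. A further 3 genes were called in part of the comparisons and settings, and most of the list was not called. Immediate early and heat shock sums were also lower in both BWF1 groups, as given above. A link of these calls to CD40, BAFF or any other input was not tested. Of 33 genes listed for BAFF and CD40 signalling 29 were tested. In BWF1 females against BALB/c females 0 were called higher and 3 lower (2.03% of all tested genes were called lower), with a list median of -0.05 on the log2 scale. In BWF1 males against BALB/c females 0 were called higher and 3 lower (1.85% of all tested genes were called lower), with a median of -0.25. Between the BWF1 sexes edgeR called 0 in either direction, with a median of 0.03. There 5 of the 29 had an unadjusted edgeR p under 0.05, where 1266 of all 7719 tested genes did. DESeq2 called 0 of the list and gave no adjusted p for 13.

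Tnfaip3, which encodes the NF-kB inhibitor A20, stood at 44.1, 59.7 and 65.7 CPM in BWF1 females, 53.0, 53.3 and 58.9 CPM in BWF1 males and 114, 115 and 110 CPM in the BALB/c females. No BWF1 library reached the lowest BALB/c library, and Tnfaip3 was called in all 21 alternative settings of both comparisons. Its level in BWF1 females was 0.501 times that of BALB/c females (95% interval of the log2 fold change -1.38 to -0.62; edgeR adjusted p = 0.00137). In BWF1 males it was 0.489 times (-1.40 to -0.66; edgeR adjusted p = 0.000625). Birc3 (cIAP2), which with TRAF3 holds the kinase NIK in check, averaged 60.4 ± 7.67, 63.4 ± 9.04 and 98.6 ± 9.84 CPM in BWF1 females, BWF1 males and the BALB/c females (SD, n = 3) and was called lower in both comparisons with BALB/c, at -0.71 (edgeR adjusted p = 0.0268) in females and -0.64 (adjusted p = 0.0449) in males.

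Nfkbia, the inhibitor IkB-alpha, averaged 87.1 ± 11.3, 91.7 ± 14.4 and 134 ± 13.6 CPM in BWF1 females, BWF1 males and the BALB/c females. It was called lower in BWF1 females over BALB/c females (-0.62, edgeR adjusted p = 0.0447) and not in BWF1 males (-0.55, adjusted p = 0.0786). Relb, the NF-kB subunit that pairs with the Nfkb2 product in the alternative pathway, averaged 39.3 ± 2.01, 30.8 ± 2.90 and 51.3 ± 6.11 CPM in the same order, and was called lower in BWF1 males (-0.72, edgeR adjusted p = 0.0487) and not in BWF1 females (-0.38, adjusted p = 0.372). Between BWF1 females and males neither gene was called (edgeR adjusted p = 0.886 for Nfkbia and 0.480 for Relb). These calls were fragile, although no sign changed in any of the 21 alternatives: Birc3 kept its call in 13 in BWF1 females and 11 in BWF1 males, Nfkbia in 9 and Relb in 5. B cell marker scaling ended all of them. The edgeR adjusted p was then 0.169 for Birc3 and 0.289 for Nfkbia in BWF1 females. In BWF1 males it was 0.139 for Birc3 and 0.118 for Relb. With the file tag as a term, Birc3 (0.163 in BWF1 females, 0.205 in BWF1 males) and Relb (0.222) lost their calls, and Nfkbia kept its call (0.0229). Single libraries also ended calls: without BALB/c female 2 the edgeR adjusted p was 0.134 for Birc3 and 0.107 for Nfkbia in BWF1 females, and 0.209 for Birc3 and 0.153 for Relb in BWF1 males. Birc3 was also lost without BALB/c female 1 (0.0824), BWF1 female 1 (0.0574) or BWF1 female 2 (0.127) in BWF1 females, and without BALB/c female 1 (0.118), BALB/c female 3 (0.0644), BWF1 male 3 (0.257) or BWF1 female 1 (0.0571) in BWF1 males. Nfkbia kept its call in 2 of the 9 fits that left out a library (without BWF1 male 1 or 2; 0.0568 to 0.195 in the others), and Relb in 1 (without BWF1 female 3; 0.0518 to 0.189 in the others). DESeq2 called 1 gene of the list, Tnfaip3, in each comparison with BALB/c females. Map3k14 (NIK) averaged 42.2, 49.9 and 54.8 CPM, Nfkb2 104, 117 and 123 CPM and Traf3 57.5, 56.5 and 59.7 CPM in BWF1 females, BWF1 males and the BALB/c females, and none of the 3 was called in any comparison. Tnfrsf17, the third BAFF family receptor, which plasma cells carry, had 1, 0 and 0 counts in BWF1 females, 2, 4 and 5 in BWF1 males, against 1, 2 and 0 in the BALB/c females.

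A wider list of costimulation partners, which holds ligands, receptors and adhesion genes of T cells and antigen-presenting cells, was poorly covered. Of 32 listed genes 16 were tested, of which 0 were called higher and 0 lower by edgeR in BWF1 females against BALB/c females (median log2 fold change -0.10; 3 at an unadjusted p under 0.05, 0 called by DESeq2), 2 higher and 0 lower in BWF1 males against BALB/c females (0.19), and 0 higher and 1 lower in BWF1 females against BWF1 males (-0.41). In that last comparison 7 had an unadjusted p under 0.05, and DESeq2 called 3 lower and gave no adjusted p for 10. Between the BWF1 sexes the count lower became 3 with Lars2 left out, robust dispersion, no filter or the legacy fit, and 0 with library size only, B cell marker scaling, or without BWF1 male 3 or BWF1 female 2, whereas 2 were called without BWF1 male 1 or BWF1 female 1. In BWF1 males against BALB/c females 7 had an unadjusted p under 0.05 and DESeq2 called 2. Of all 7719 tested genes, 1308 had an unadjusted edgeR p under 0.05 in BWF1 females against BALB/c females. That number was 1260 in BWF1 males against BALB/c females and 1266 in BWF1 females against BWF1 males. Of all tested genes, edgeR called 1.67% higher in BWF1 males against BALB/c females and 1.23% lower in BWF1 females against BWF1 males. Icos, the receptor of ICOSL, averaged 5.53 ± 2.20, 9.20 ± 1.80 and 8.84 ± 2.52 CPM in BWF1 females, BWF1 males and the BALB/c females. Cd28 averaged 23.5 ± 2.71, 35.3 ± 8.68 and 23.7 ± 7.75 CPM, and neither gene was called in any comparison. Cd40lg, the ligand of CD40, had 1, 1 and 2 counts in BWF1 females, 3, 4 and 23 in BWF1 males, against 13, 5 and 4 in the BALB/c females, and Ctla4 had 2, 3 and 1, then 0, 4 and 25, then 6, 11 and 7 counts in the same groups, both below the filter.

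The 2 called genes of the costimulation list, Vsir and Itgb2, were called higher in BWF1 males than in BALB/c females. Vsir, the checkpoint protein VISTA, stood at 61.8, 37.1 and 65.7 CPM in BWF1 females, 135, 84.1 and 114 CPM in BWF1 males and 69.7, 57.8 and 56.5 CPM in the BALB/c females. It was called lower in BWF1 females over BWF1 males (-1.02, edgeR adjusted p = 0.0115) and higher in BWF1 males over BALB/c females (0.85, adjusted p = 0.0179). Itgb2, the beta chain of the integrin LFA-1, averaged 142 ± 24.4, 216 ± 22.8 and 126 ± 16.7 CPM in BWF1 females, BWF1 males and the BALB/c females and was called in BWF1 males over BALB/c females (0.78, edgeR adjusted p = 0.00536). Between BWF1 females and BWF1 males Itgb2 was not called. Macrophage, T cell and plasma cell marker sums were also higher in BWF1 males. T cell markers (16 listed, none at 0) summed to 610 to 690 CPM in BWF1 females, 1004 to 1143 in BWF1 males, against 647 to 915 in the BALB/c females. Plasma cell markers (10 listed, 8 tested, none at 0) summed to 600 to 895 CPM in BWF1 females, 1305 to 2130 in BWF1 males, against 737 to 876 in the BALB/c females, with 4 called higher in BWF1 males against BALB/c females, where 1.67% of all tested genes were. The part of these cell types in the Vsir and Itgb2 results was not tested. Over BALB/c females, neither gene was called with library size only (Vsir 0.35, Itgb2 0.31) or with the file tag as a term (Vsir 0.39, adjusted p = 0.492; Itgb2 0.66, adjusted p = 0.0962, by edgeR). Without BALB/c female 2 both calls were lost (Vsir adjusted p = 0.108 and Itgb2 0.0733), and that of Vsir also without BWF1 male 3 (0.0777) or BALB/c female 3 (0.0829). Against BWF1 males, the Vsir call was lost with library size only (-0.78), B cell marker scaling (-0.89), and without BWF1 female 2 (adjusted p = 0.0612) or BWF1 male 3 (0.0587).

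**Figure D5:**
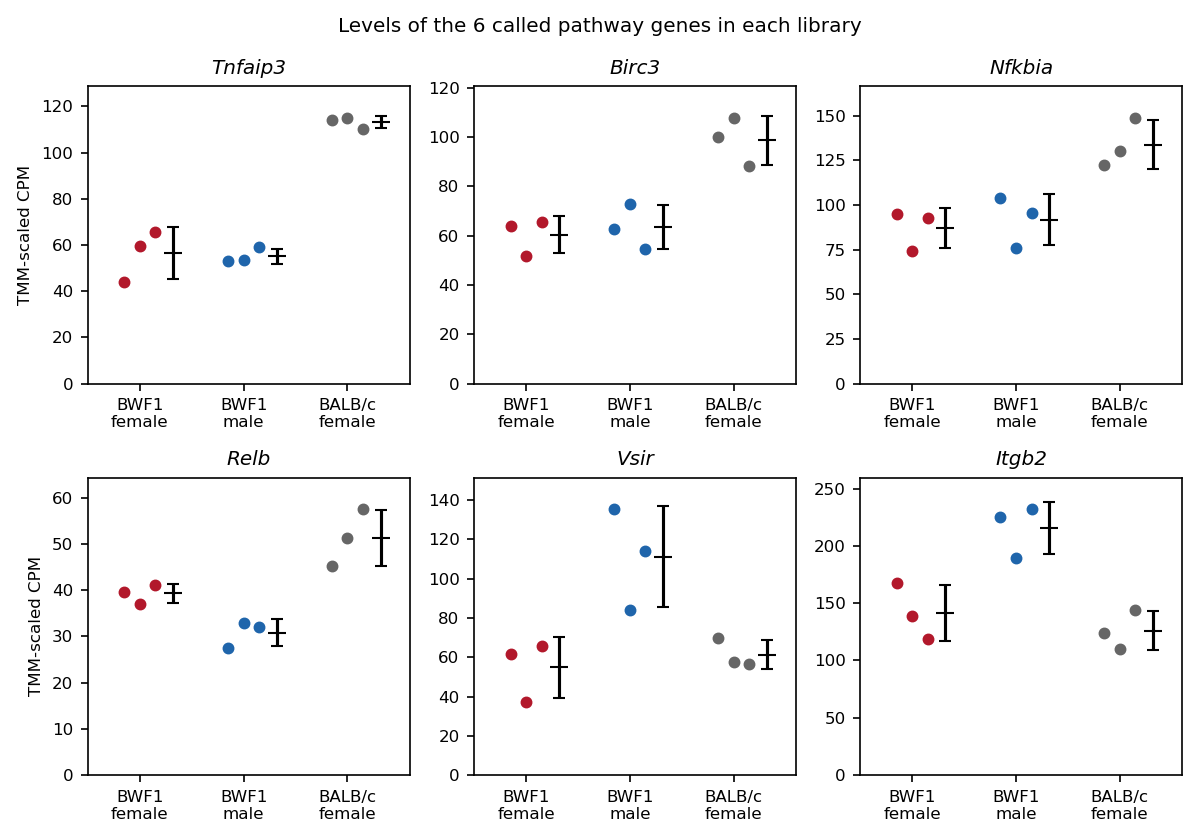
Level in TMM-scaled CPM (vertical axes from 0) of the 6 genes of the signalling and costimulation lists called in at least 1 comparison. Points are libraries of BWF1 females (red), BWF1 males (blue) and the BALB/c females (grey), and bars give mean and SD. Tnfaip3, Birc3, Nfkbia and Relb are highest in the BALB/c females, and Vsir and Itgb2 are highest in BWF1 males.

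Across the 9 libraries, the tested genes whose log2 CPM ran most like that of Cd40 were H2-DMb2 (Pearson r = 0.969), Fcer2a (0.968) and Cnn3 (0.962), and those most like Icosl were Hba-a2 (0.967), H2-DMb2 (0.966) and Fcer2a (0.964). These r describe 9 points out of 4769 genes compared, share library and depth, and have the 3 BALB/c libraries as the highest points for all of these genes. Fcer2a, the low-affinity IgE receptor CD23 of follicular B cells, stood at 66.2, 72.6 and 92.4 CPM in BWF1 females, 68.6, 98.4 and 97.2 CPM in BWF1 males and 277, 286 and 331 CPM in the BALB/c females. H2-DMb2, a chain of the H2-DM peptide loader of MHC class II, ran from 172 to 194 CPM in BWF1 females, 180 to 201 CPM in BWF1 males and 247 to 273 CPM in the BALB/c females. Hba-a2 had 0 counts in all 6 BWF1 libraries and 174, 720 and 188 in the BALB/c females, and its near-identical copy Hba-a1 makes its counts uncertain.

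The genes most like Tnfrsf13c were Abhd2 (r = 0.929), Syne3 (0.903) and Klf13 (0.857), those most like Tnfrsf13b were Ndufa13 (0.908), Rnf145 (0.872) and Ino80e (0.858), and those most like Cd86 were Clns1a (0.947), Rpl23 (0.924) and Ddx50 (0.913). No gene was shared between these 3 sets. Among the members, Cd40 and Icosl had r = 0.94 over the 9 libraries, with the 3 BALB/c libraries highest in both, and the 2 BAFF receptors had r = 0.30.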

How the data were processed

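The 8 genes and all gene lists were chosen with earlier results of these data known. The authors deposited raw read counts per gene in 1 file per library and a joint table, which differed in 0 values, each library file ending with the 5 summary lines of HTSeq. The submitters' processing notes name STAR 2.6, FastQC 0.10.1 and mm10. Whether sequence differences between the strains and mm10 affected the counts was not tested. Which annotation, strand setting and feature type were used for counting is not given in the sources used here, and reads shared by overlapping or antisense genes could not be separated. Only 1.29% to 2.82% of alignments per library fell in counted genes, and every BALB/c library lay above every BWF1 library. Names, coordinates and exon lengths came from GENCODE M21, which held 21939 of the 21965 Ensembl identifiers. The symbols Camlg and Ahsp found no match.

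Counts were analysed in R 4.3.3 with edgeR 4.0.16: filterByExpr with a minimum count of 10 (7719 genes kept, 14246 set aside), TMM factors (0.530 to 1.40), 1 quasi-likelihood fit to all 9 libraries without a replicate block, and Benjamini-Hochberg adjustment over all tested genes in each of 3 comparisons. The threshold for a call was an adjusted p of 0.05. Standard errors are the log2 fold change divided by the square root of F. Single measures were compared by exact two-sided permutation tests. The fit was tested on simulated data. A count of 3 in 1 library equals 0.697 to 6.54 CPM of the raw totals, so low genes are imprecise. The design text gives 3 mice per group, and p-values set group differences against the spread between these libraries. In the edgeR fit the spread of each gene was moderated by that of all tested genes, with 19.4 prior degrees of freedom. Between replicates, chi-square per degree of freedom ran from 1.41 to 19.5, so none repeated another within counting error. Same-numbered libraries did not deviate together (9 pairs, r from -0.0912 to 0.0589), so numbers were not taken as pairs.

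The genes named are the 8 members, from each list the called genes with the lowest p, up to 2 in each direction (4 for the signalling and costimulation lists), 9 partner genes, and for each tested member the 3 genes of at least 20 CPM with the highest Pearson r. Not all of these are printed. The lists used beside the members are B cell, plasma cell, T cell, macrophage and monocyte, dendritic cell, neutrophil, erythroid, and stromal and endothelial markers, immediate early and heat shock genes, BAFF and CD40 signalling, and costimulation partners. Alternatives covered scaling, filter, tool, Lars2, samples in the fit, file tag, block, B cell markers counted (Cd79a and Cd79b alone) and left-out libraries. A legacy quasi-likelihood fit was added after seeing the data.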

Additional observations from a re-analysis of the deposited data

How the results depend on the processing

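Icosl was called lower in both comparisons with BALB/c females in all 21 alternatives, at -1.46 to -0.89 in BWF1 females (adjusted p at most 0.00961) and -1.57 to -1.03 in BWF1 males (at most 0.00410). Cd40 kept its direction in all 21 and its call in 14. In BWF1 females over BALB/c females it was lost with library size only (-1.15, adjusted p = 0.133), B cell marker scaling (-0.57, 0.0910), the file tag (-0.74, 0.175), DESeq2 1.42.0 (-0.84, 0.129), and without BWF1 female 1 (0.0699), BALB/c female 2 (0.0643) or 3 (0.0974). In BWF1 males it was lost with B cell marker scaling (-0.62, 0.0900), the tag (-0.63, 0.297), DESeq2 (-0.74, 0.0894), and without BWF1 male 2 (0.0668) or 3 (0.143) or BALB/c female 2 (0.122) or 3 (0.152). In each of these settings 1 member was called in place of 2, so leaving out libraries gave 1 to 2. With the replicate block 0, 2 and 2 members were called, as without it, and 118, 255 and 240 genes.

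The 169 genes called between BWF1 females and males became 59 with library size only, 304 with no filter, 98 with only those groups, 105 with DESeq2, and 58 to 198 with a library left out (58 without BWF1 male 3). The 295 called in BWF1 females over BALB/c females became 130, 720 with B cell marker scaling, 160 with the tag, 169 with DESeq2, and 184 to 370. The 272 in BWF1 males over BALB/c females became 433 without Lars2, 510 with no filter, 153 with the tag, 484 with the legacy fit, and 119 to 393. The split of higher and lower calls moved to 23 and 107 in BWF1 females and 26 and 248 in BWF1 males over BALB/c females with library size only, which shifted the median of all genes by -0.29 and -0.44. It moved to 627 and 93 and to 204 and 87 with B cell marker scaling, which shifted it by 0.28 and 0.13. The cause was not tested.

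Signs turned only for values called in no setting. Between BWF1 females and males, Cd40 was 0.045 with library size only and 0.043 with B cell marker scaling, Icosl 0.12, 0.14, 0.00283 with DESeq2 size factors and 0.00169 with the replicate block (-0.12 to 0.13 with a library left out), and Tnfrsf13b -0.00941 with no filter (-0.019 to 0.047 with a library left out). With library size only, Tnfrsf13b was -0.17 in BWF1 females over BALB/c females, and in BWF1 males over BALB/c females Tnfrsf13b was -0.39, Tnfrsf13c -0.26 and Cd86 -0.45. Tnfrsf13c in BWF1 females over BALB/c females was 0.27 with B cell marker scaling and -0.22 to 0.11 with a library left out. Cd86 in BWF1 males over BALB/c females was -0.041 without Lars2, -0.064 with the legacy fit and -0.25 to 0.30 with a library left out. DESeq2 gave no adjusted p for Cd40 and Cd86 between BWF1 females and males. The choice of Cd79a and Cd79b as the B cell markers is given beside the values per 1000 marker counts.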
